A study of Oryza sativa with 4 samples.

Results

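The 8 genes described here regulate how the rice panicle branches and when its meristems become spikelets. They are APO1, APO2 (also called RFL), LAX1, MOC1, FZP, TAW1, SNB and OsIDS1, chosen by locus ID, and each was found on its own row among the 57143 rows of the deposited table. The study asked what OsRDR2, a polymerase that copies RNA for RNA-directed DNA methylation, does in young panicles of japonica rice. Its labels give 2 samples of the control, Nip, and 2 of osrdr2-3, with the genotype given as DES1 mutant; neither panicle length nor developmental stage is stated. No library carries the name of its sample. The libraries ck1 and ck2 were read as the 2 Nip samples, taking ck as control and the number as the replicate. A further library named like a control matched none of the labelled samples and was not used. On that reading every value below is a level in Nip (n = 2). The osrdr2-3 samples were not analysed here, because the libraries with des1 in their names carry numbers that match neither replicate. The unit is FPKM, the fragments of a gene divided by the length of its transcript and by the fragments of the library, so levels of different genes can be set side by side. With 1 group no test was made, and nothing in the labels says whether the 2 samples came from separate plants.

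A rice panicle is built by meristems in sequence: the inflorescence meristem forms branch meristems, these form spikelet meristems, and each spikelet meristem ends in a floret. Some of the genes keep meristems in the branching state, some start new axillary meristems, and others push a spikelet meristem towards the floret. The timing of these changes sets how many branches and grains a panicle carries.

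Of the 8 genes, 3 were expressed at 1 FPKM or more in both libraries, and these were SNB, OsIDS1 and MOC1. APO2 was above 0 but under 0.1 FPKM in both libraries, TAW1 in replicate 1 alone with 0 in replicate 2, and APO1, LAX1 and FZP were listed at 0 in both libraries. Over all 53983 rows with 1 locus ID, 37% reached 1 FPKM in both libraries and 45.1% were listed at 0 in both. The 3 of 8 at 1 FPKM are thus close to the share of all rows. The median of the 8 genes was 0.0368 FPKM in Nip replicate 1 and 0.0319 in Nip replicate 2, beside 0.0392 and 0.0367 FPKM over those rows. The 8 genes therefore split into a group of 3 expressed genes and a group of 5 with little or no signal, with none between 0.1 and 1 FPKM.

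**Figure D1:**
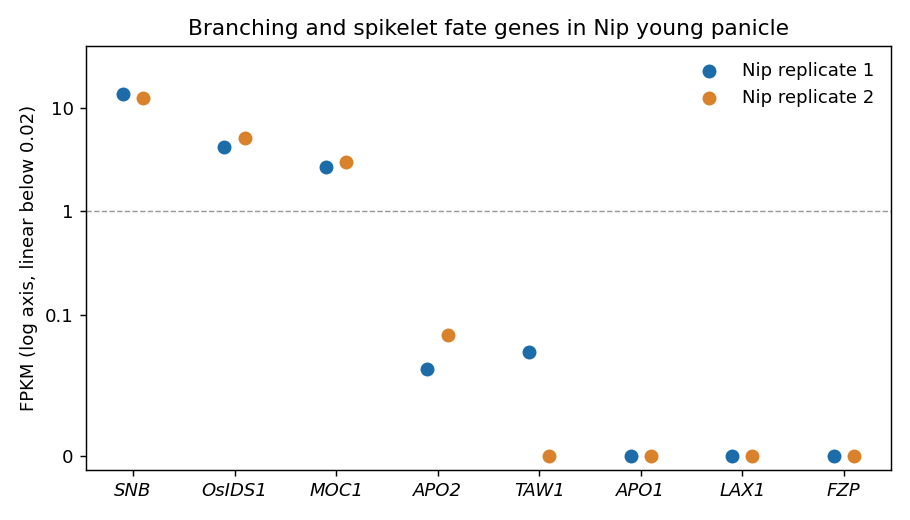
FPKM (vertical axis, logarithmic, linear below 0.02) of the 8 genes in each Nip library, with 1 point per replicate and a dashed line at 1 FPKM. SNB, OsIDS1 and MOC1 lie above the line in both replicates, and the other genes lie under 0.1 FPKM.

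The genes that hold meristems in the branching state were at or near 0. APO1, an F-box protein that delays the change from branch to spikelet meristem, was listed at 0 in replicate 1 and at 0 in replicate 2 (LOC_Os06g45460, chromosome 6, 27480081 to 27481387). APO2, the rice LEAFY protein, which acts together with APO1, measured 0.0299 FPKM in the first replicate and 0.0639 in the second, averaging 0.0469 ± 0.0240 (SD, n = 2; LOC_Os04g51000, chromosome 4, 30182588 to 30185852). TAW1, an ALOG-family nuclear protein that promotes branching and delays spikelet formation, measured 0.0438 FPKM in the first replicate and 0 in the second (LOC_Os10g33780, chromosome 10, 17888296 to 17889724). The values of APO2 and TAW1 overlapped, so the libraries do not order these genes. Coordinates here and below are those of the table, and the sources used here do not name its genome build.

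No fragment counts are given, but the low values move in steps, and the ratio of APO2 falls on one of them. Among the 3905 rows above 0 in both libraries that the authors' table gives the status NOTEST, the most frequent ratio of replicate 2 to replicate 1 was 1.07, found within 0.02 on the log2 scale in 748 rows. Ratios of 2 to 1 and 1 to 2 around it held 246 and 299 rows, whereas windows of the same total width beside these ratios held 7 rows each. The 7 ratios examined, of whole numbers up to 3, held 47.3% of the 3905 rows. Whole numbers of fragments would give such steps, but this origin was not tested. The APO2 ratio was 2.14, which is 2.00 times the most frequent ratio. That is the ratio of 2 fragments in replicate 2 to 1 in replicate 1, or a multiple of both. At values this low the SD of APO2 is no measure of precision, and none is given for TAW1.

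**Figure D2:**
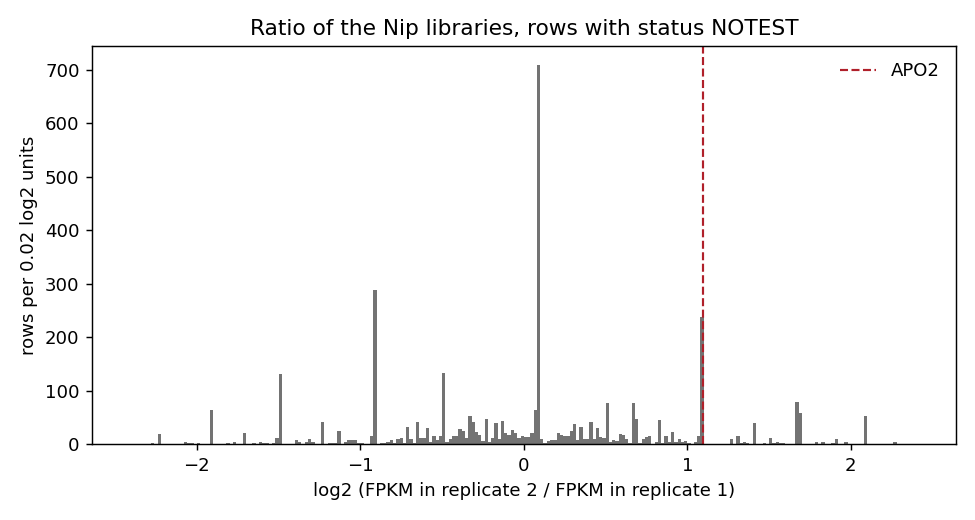
Number of rows (vertical axis) by log2 ratio of FPKM in Nip replicate 2 to replicate 1 (horizontal axis), for the 3905 rows with the status NOTEST above 0 in both libraries. The tallest bar, at a ratio of 1.07, is flanked by peaks at simple fractions of it, and the dashed line of APO2 falls on the peak at 2 to 1.

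Genes that start axillary meristems differed. LAX1, a bHLH transcription factor needed for branch and spikelet meristems to arise, was listed at 0 in both libraries (LOC_Os01g61480, chromosome 1, 35558147 to 35559225). MOC1, a GRAS-family regulator of tiller and panicle axillary meristems, measured 2.70 FPKM in the first replicate and 3.03 in the second, averaging 2.87 ± 0.236 (SD, n = 2; LOC_Os06g40780). Both MOC1 values were above those of the 5 genes under 1 FPKM. The MOC1 row spans 16097 bp on chromosome 6, from 24300837 to 24316933, and a row without a locus ID has the same start and end. That other row was at 0.857 and 0.669 FPKM. How fragments were divided between these rows is not stated, and a row of this span may hold more than that gene. The MOC1 level is uncertain to that extent, and the name of the row rests on the gene list alone. MOC1 was the only one of the 8 genes whose start and end were shared with another row, against 13.6% of all rows.

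FZP, an ERF transcription factor that stops axillary meristems from forming in the spikelet and so sets floret identity, was listed at 0 in both libraries (LOC_Os07g47330, chromosome 7, 28299590 to 28301089). For the genes listed at 0, the smallest values at other loci of like span are given for scale, and they need not be those of a single fragment. Among the 2498 rows with 1 locus ID and a span within 10% of that of APO1, the lowest value above 0 was 0.0315 FPKM in the first replicate and 0.0335 in the second. The corresponding values were 0.0404 and 0.0429 FPKM for LAX1 and 0.0265 and 0.0211 FPKM for FZP. A zero was common at these spans, since 56.7% of rows of the span of APO1, 58.6% at LAX1 and 52.0% at FZP were listed at 0 in both libraries. A listed 0 says only that no expression was detectable at this depth, not that it was absent. In whole panicles, fewer cells of a type and less RNA per cell cannot be told apart.

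SNB and OsIDS1 were the most abundant of the 8 genes. They are AP2-type transcription factors, targets of the microRNA miR172, that act together in the change from spikelet to floret meristem. SNB measured 13.7 FPKM in the first replicate and 12.6 in the second, averaging 13.2 ± 0.740 (SD, n = 2; LOC_Os07g13170, chromosome 7, 7545485 to 7550141). This exceeded the level of 82.2% of the rows that carry 1 locus ID. OsIDS1 measured 4.18 FPKM in the first replicate and 5.09 in the second, averaging 4.64 ± 0.646 (SD, n = 2; LOC_Os03g60430, chromosome 3, 34358192 to 34362334), above 72.6% of those rows. MOC1 stood above 68.9% of them.

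The order SNB, OsIDS1, MOC1 was the same in both libraries, and no ranges overlapped between neighbours. SNB was 3.27 times OsIDS1 in replicate 1 and 2.48 times in replicate 2. OsIDS1 was 1.55 and 1.68 times MOC1. With 2 libraries this order is a description. Between the libraries SNB was lower in replicate 2, by a log2(FPKM + 1) difference of -0.11, whereas OsIDS1 was higher by 0.23 and MOC1 by 0.12. Among rows within 1.2-fold of the mean of each gene, the median absolute difference was 0.07 for the level of SNB, 0.11 for OsIDS1 and 0.12 for MOC1, and the 90th percentile was 0.21, 0.31 and 0.35. All 3 differences thus lay within the usual spread of rows of their level.

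SNB and OsIDS1 were set beside OsTOE1 and SHAT1, further AP2-type genes of the same subfamily. OsTOE1 was at 67.3 and 64.9 FPKM, and SHAT1, which is needed for the seed abscission zone, at 23.4 and 20.6 FPKM. All 4 genes exceeded 1 FPKM, in the order OsTOE1, SHAT1, SNB, OsIDS1 in both libraries. SHAT1 was 1.71 times SNB in replicate 1 and 1.63 times in replicate 2. The ranges of neighbours in this order did not overlap.

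TAW1 was set beside the paralogs of its ALOG family, a list added after the TAW1 values were seen. Of the 7 ALOG genes that could be named, with TAW1 and G1, 2 reached 1 FPKM in both libraries. G1L2 was at 5.85 and 5.65 FPKM, and G1L1 at 4.91 and 4.09 FPKM. G1L3 was at 0.0779 and 0.249 FPKM and G1L6 at 0.231 and 0.0899 FPKM. G1, which specifies the sterile lemma, and G1L4 were listed at 0 in both libraries. TAW1 is known to raise the SVP-type MADS genes OsMADS22, OsMADS47 and OsMADS55. These were at 13.7 ± 0.334, 4.53 ± 0.117 and 4.57 ± 0.899 FPKM, all above 1 FPKM in both libraries in which TAW1 was at or near 0.

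Other genes of the panicle were compared by lists. Of the 44 listed genes whose symbol could be paired with the locus, 32 reached 1 FPKM in both libraries and 2 were listed at 0 in both. In the branching pathway list, of whose 18 IDs only 4 could be paired with their symbol, 2 of these 4 genes reached 1 FPKM. LOG, a cytokinin-activating enzyme of meristems, was at 33.4 ± 1.61 FPKM and IPA1, an SPL factor that shapes the panicle, at 2.37 ± 0.535 FPKM. OsCKX2, a cytokinin oxidase, and LAX2, a partner of LAX1, stayed under 1 FPKM, at 0.948 ± 0.0699 and 0.521 ± 0.146 FPKM. LAX2 was thus above 0 in both libraries and LAX1 was not.

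The paired genes of meristem maintenance and of the change in meristem phase were all expressed. Of 4 meristem maintenance IDs, 3 could be paired with their symbol. These were OSH15, OSH1 and FON1, which ranged from 9.09 to 37.4 FPKM, and all 3 reached 1 FPKM. All 7 MADS genes of meristem phase did so, with OsMADS15, OsMADS14 and OsMADS18 highest at 251.5, 104.5 and 65.0 FPKM and the SVP-type genes OsMADS55 and OsMADS47 lowest. OsMADS34, which promotes spikelet meristem identity, was at 14.9 and 14.7 FPKM, close to SNB.

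Of the genes of later steps in the spikelet, the floral organ genes and the MADS genes of spikelet organs were abundant, whereas most tapetum genes were low. All 7 floral organ genes exceeded 10 FPKM in both libraries, from DL at 16.9 FPKM and OsMADS4 at 21.1 FPKM to OsMADS3, OsMADS13 and OsMADS58 at 115.1, 116.5 and 162.3 FPKM. OsMADS58 shared its row with a second locus ID. Of 6 spikelet organ genes, the 5 MADS genes exceeded 10 FPKM, from OsMADS5 at 66.4 FPKM through OsMADS7 and OsMADS8 to OsMADS1 at 1670 FPKM, whose row has a long span and may hold more than that gene, and G1 was at 0. The labelled tissue, panicle, thus carried transcripts of every floral organ gene on the list. Of the germ line and meiosis genes, 3 of 5 reached 1 FPKM in both libraries. PAIR2, MSP1 and MEL1 were at 21.5, 7.70 and 1.99 FPKM, and PAIR3 and PAIR1 at 1.10 and 0.578 FPKM. Of the tapetum list, 1 of 5 genes reached 1 FPKM in both libraries. This was GAMYB at 14.03 FPKM, followed by UDT1 at 1.01 FPKM and EAT1 at 0.308 FPKM, and TIP2 and TDR were lowest at 0.306 and 0.213 FPKM. The 5 genes under 1 FPKM among the 8 regulators stood below every named tapetum gene, which follows in part from grouping them by low level. EAT1, TIP2 and TDR also had the status NOTEST.

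**Figure D3:**
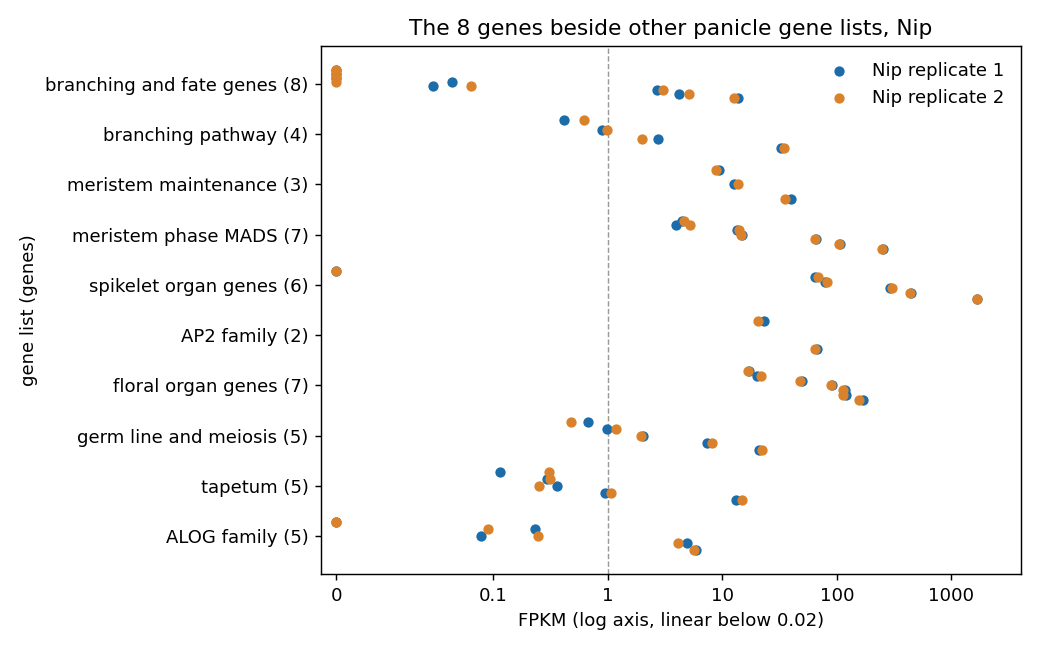
FPKM (horizontal axis, logarithmic, linear below 0.02) of the 8 genes and of each list of other panicle genes, with the number of genes in parentheses and 1 point per gene and Nip replicate. The floral organ genes all lie above 10 FPKM, whereas 5 of the 8 branching and spikelet fate genes lie under 0.1 FPKM. The median over all rows with 1 locus ID was also under 0.1 FPKM, at 0.0392 in replicate 1 and 0.0367 in replicate 2.

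By the largest difference in log2(FPKM + 1) over the 2 libraries, the listed genes nearest to SNB were OSH1, OsMADS22 and OsMADS34, within 0.12, 0.14 and 0.21. Those nearest to OsIDS1 were OsMADS55, OsMADS47 and G1L1, within 0.07, 0.12 and 0.26. The genes nearest to MOC1 were IPA1, MEL1 and OsMADS47, at 0.43, 0.44 and 0.56. Over 2 libraries of 1 group this is a likeness of level.

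Most rows near the 5 genes under 1 FPKM were expressed, though not the rows next to APO1 and LAX1, and most rows near SNB were listed at 0. Of the 50 rows nearest to the 5 genes under 1 FPKM, counting 5 rows on each side, 30 reached 1 FPKM in both libraries and 16 were listed at 0 in both. Over all rows with 1 locus ID these shares were 37% and 45.1%. Rows that share start and end, as some near LAX1 do, were counted separately. Next to APO2, the row LOC_Os04g50990 ends 535 bp before it and was at 117.2 and 119.7 FPKM, and LOC_Os04g51009 on the other side was at 2.34 and 2.50 FPKM. FZP had LOC_Os07g47340, at 54.8 and 53.4 FPKM, on one side and LOC_Os07g47320, listed at 0, on the other. TAW1 lay between LOC_Os10g33774, listed at 0, and LOC_Os10g33790, at 4.60 and 4.27 FPKM. The rows on either side of APO1 (LOC_Os06g45450 and LOC_Os06g45470) and of LAX1 (LOC_Os01g61470 and LOC_Os01g61490) were listed at 0, with 6 and 5 of their 10 nearest rows at 1 FPKM or more.

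None of the 10 rows nearest to SNB reached 1 FPKM in both libraries, and 8 were listed at 0 in both. Its neighbours were LOC_Os07g13160, at 0.710 and 0.432 FPKM, and LOC_Os07g13180, which starts 348 bp beyond SNB and was listed at 0. The highest of the 10, LOC_Os07g13100, was at 1.47 and 0.768 FPKM. Around OsIDS1, 8 of 10 rows reached 1 FPKM. Among them were the adjacent LOC_Os03g60419 at 6.01 and 9.52 FPKM and LOC_Os03g60440 at 14.1 and 8.88 FPKM. They also include a pair without a locus ID that shares start and end, at means of 1.84 and 1.61 FPKM, counted separately. Around MOC1, 6 of 10 rows reached 1 FPKM. LOC_Os06g40784 on one side was listed at 0. On the other side LOC_Os06g40770 was listed at 0, but a row with the same start and end was at 6.02 and 4.68 FPKM.

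**Figure D4:**
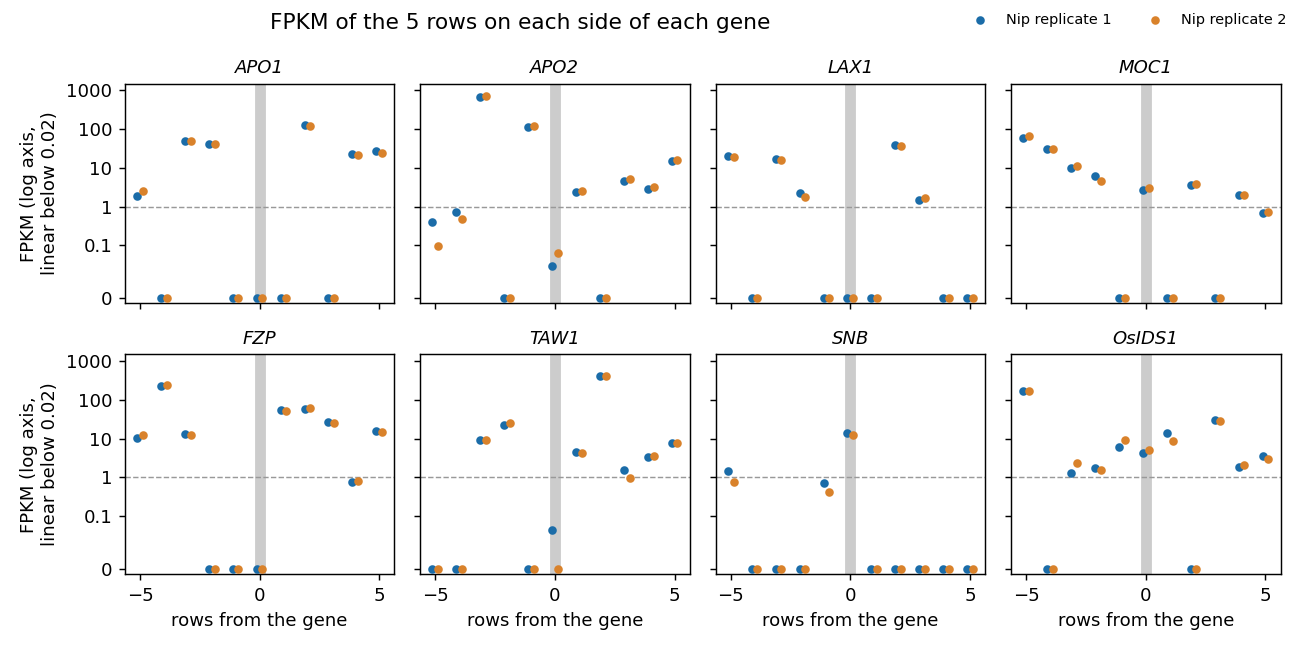
FPKM (vertical axis, logarithmic, linear below 0.02) of the 5 rows on each side of each gene, by their position in rows (horizontal axis), in Nip replicates 1 and 2, with the gene itself on the grey bar and a dashed line at 1 FPKM. SNB stands above neighbours that are at or near 0, whereas APO2, FZP and TAW1 lie lower than expressed genes close by.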

How the data were processed

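Poly(A)-selected RNA-seq was made from young panicles, per the labels' protocols, which name no step that marks the strand. The tool named by the submitters' processing notes is TopHat; for the estimator, genome build and annotation, the sources used here name none. The authors deposited FPKM values per row and library, per the file headers; a row carries 1 locus ID, several or none, and an ID can stand on more than 1 row. Library totals are not given. The names ck1 and ck2 were read as Nip replicates 1 and 2, taking ck as control and by the number alone. Values of 4 further library names could not be matched to a sample and were not used. One of these is another ck name, presumably a control, which fits neither labelled replicate. The others have des1 in their names, like the DES1 genotype given for osrdr2-3, and are presumably mutant libraries. They outnumber the osrdr2-3 samples, just as the ck names outnumber the Nip samples. Unlike ck1 and ck2, they carry numbers that match neither replicate, so none was assigned to a sample. They were not grouped by genotype alone either, and the planned limma comparison with osrdr2-3 was not made.

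The 8 genes and the lists were chosen with earlier results of these data known. RefSeq (assembly ASM3414082v1) carried the symbol, or for TAW1 its synonym G1L5, near the locus for 4 of the 8 genes (APO2, LAX1, FZP, TAW1); the names of the other 4 rest on the gene list alone. Of 62 other listed IDs, 44 were paired, by a RefSeq gene of that name within 5 Mb whose length was within 10% or whose offset was within 250 kb of that of the nearest listed gene; the other 18 are not reported. Named were all 8 genes, their adjacent rows, the 3 highest and 2 lowest genes of each list and the 3 listed genes nearest in level to each gene above 0.1 FPKM; further genes were named after their values were seen. Differences used log2(FPKM + 1). The way of finding the most frequent ratio was tried on simulated whole fragments. That cannot show whether the deposited values are whole fragments. Python 3.11.15, pandas 2.3.3 and numpy 2.4.6 were used.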

Additional observations from a re-analysis of the deposited data

How the results depend on the processing

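The number of the 8 genes at 1 FPKM or more in both libraries was 3, and it was 3 with a minimum of 0.5 FPKM, with either library alone and with median-ratio scaling. With a minimum of 5 FPKM it was 1, SNB, because OsIDS1 was at 4.18 FPKM in replicate 1 and MOC1 lower. Of the other listed genes 32 reached 1 FPKM, and the alternatives, added after the values were seen, gave 27 to 35. Single libraries gave 12.6 to 13.7 FPKM for SNB, 4.18 to 5.09 for OsIDS1 and 2.70 to 3.03 for MOC1; with 2 libraries neither can lie more than 1 SD from their mean, so this does not test stability. The most frequent ratio of low values was 1.07 under both other settings tried after seeing the data. No paired analysis was possible because only libraries read as Nip were assigned to samples. For that reason the planned comparison of genotypes, with its pseudocount, filter, block and scaling settings, was not run. Depth limits what can be said of APO1, LAX1, FZP, TAW1 and APO2, which were listed at 0 or under 0.1 FPKM.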

Other observations

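Some other low genes of the lists stood at simple multiples of the most frequent ratio between the libraries, 1.07, and others did not. The ratio of replicate 2 to replicate 1, divided by it, was 3.00 for the ALOG gene G1L3, 2.50 for the tapetum gene TDR and 1.00 for the tapetum gene TIP2. It was 0.648 for EAT1 and 0.364 for G1L6, which lie farther than 0.02 on the log2 scale from any ratio of whole numbers up to 5. These ratios were chosen for a look after the values were seen.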
